A study of Solanum lycopersicum x Solanum pennellii and Solanum lycopersicum with 17 samples.

Results

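The 2 probe sets described here carry the symbols TAO2 and TAO3, the tomato aldehyde oxidase genes found by taking every probe set whose symbol is TAO followed by a digit. They are 2 of 10101 probe sets tested and 2 of the 909 that have a gene symbol. Each gene has 1 probe set on the array, TAO2 (Entrez gene 543651) and TAO3 (Entrez gene 543652). TAO2 was selected on its measured log2 levels in the line IL-1_1, which were low, so all values that involve IL-1_1 are given for both probe sets as a description with no test. AO1 (Entrez gene 543650), an aldehyde oxidase gene by its symbol, lies outside the rule; it was added for comparison after the table of names had been seen.

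Aldehyde oxidases are large flavin and iron-sulfur enzymes that need a sulfurated molybdenum cofactor and oxidise aldehydes to carboxylic acids. In plants the best known of these reactions turns abscisic aldehyde into abscisic acid, the last step in the synthesis of the hormone that governs seed maturation and the closing of stomata. Tomato mutants that lack aldehyde oxidase activity, among them sitiens and the cofactor mutant flacca, make little abscisic acid and wilt. Some plant aldehyde oxidases also oxidise indole-3-acetaldehyde to the auxin indole-3-acetic acid in the test tube. Which of these reactions TAO2 and TAO3 carry out in the carpel was not measured.

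RNA was taken from whole tomato carpels 7 days after pollination, when the ovary is growing into a young fruit, and each sample was hybridised to its own Affymetrix tomato array. The groups were the introgression lines IL-1_1 (4 arrays), IL-1_4 (3 arrays) and IL-2_3 (4 arrays) and their parent, the cultivar M82 (6 arrays, named a seed control in the titles). An introgression line is M82 in which part of 1 chromosome has been replaced by that of the wild tomato Solanum pennellii; IL-1_1 and IL-1_4 carry different parts of chromosome 1, and IL-2_3 part of chromosome 2. The series' design text speaks of hybrids, and whether the plants carried the wild segment on 1 or on both copies of the chromosome is not given in the sources used here. All plants grew in a greenhouse, in pots, under the same treatment. Whether arrays of a group came from separate plants is not stated, so the p-values reflect the spread between these arrays alone, which may be technical.

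Levels are the deposited log2 intensities, on which a difference of 1 is a 2-fold difference. Array medians lay between 9.97 and 10.04, single values between 3.31 and 14.75, and correlations between arrays of a group between 0.95 and 0.996. The carpel gene TAGL1 read above the array median on all arrays (10.78 to 11.23), while the pollen gene Shy (4.09 to 4.69) and the stigma gene Stig1 (3.67 to 4.61) stayed near the dim end. Of the other carpel and young fruit genes, TDR6 ran from 12.48 to 13.08, TDR4 from 8.04 to 11.12 and fsm1 from 8.64 to 13.04. The leaf genes CAB4 (10.17 to 13.56) and CAB6A (11.44 to 13.45) also gave high signals. Arrays within groups differed along a main axis of variation, on which the highest scores of their groups belonged to replicate 1 of IL-1_1 (60.98), replicate 4 of IL-2_3 (31.1) and replicate 1 of M82 (42.6). Carpels are mixtures of tissues, and fewer cells that express a gene cannot be told apart here from less of its RNA per cell.

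TAO2 was far lower in IL-1_1 than in the other lines or in M82. In the 4 IL-1_1 arrays TAO2 read 8.20, 7.93, 7.70 and 8.49 on the log2 scale. In the 3 IL-1_4 arrays TAO2 read 10.62, 10.59 and 10.50. In the 4 IL-2_3 arrays TAO2 read 10.41, 10.67, 10.29 and 10.41. The lowest, median and highest of the 6 M82 arrays were 9.93, 10.54 and 10.98 for TAO2. Every IL-1_1 array was thus below each of the other 13 arrays, while the arrays of IL-1_4 and IL-2_3 fell inside the range of M82.

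**Figure D1:**
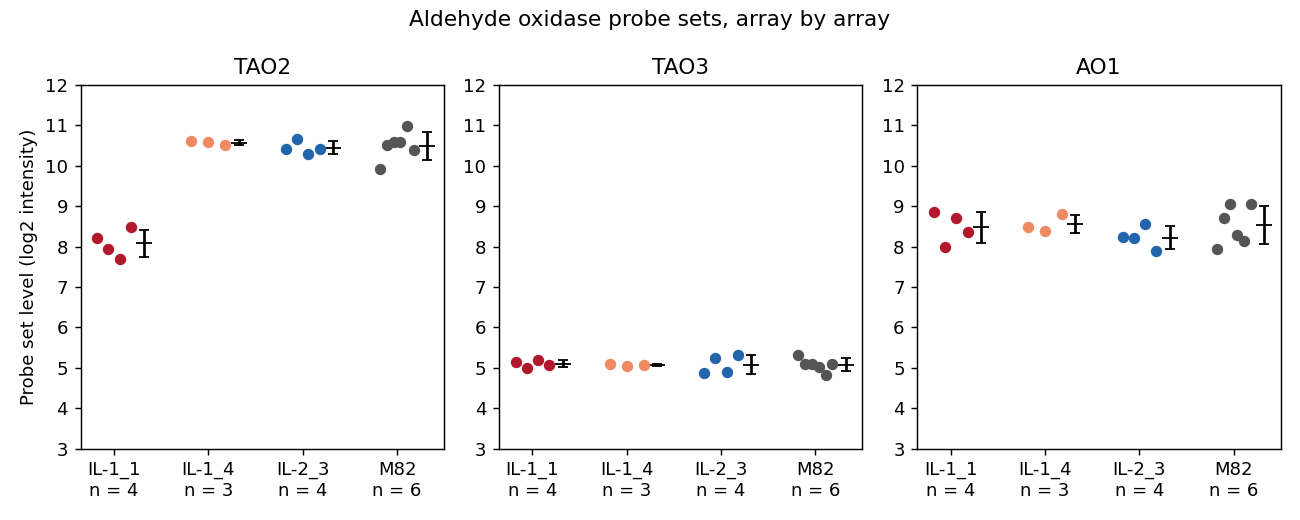
Log2 level of the TAO2, TAO3 and AO1 probe sets on each array (points), by group, with the group mean and SD (bars) beside the points; n is the number of arrays. The 4 IL-1_1 points of TAO2 lie between 7.70 and 8.49, below all others for that probe set (9.93 to 10.98), while the groups overlap for TAO3 and AO1.

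The mean level of TAO2 was 8.08 ± 0.34 in IL-1_1 (SD, n = 4), 10.57 ± 0.06 in IL-1_4 (n = 3), 10.44 ± 0.16 in IL-2_3 (n = 4) and 10.50 ± 0.34 in M82 (n = 6). IL-1_1 minus M82 gave a TAO2 difference of -2.42 ± 0.17 (SE of the fit across all arrays), so that TAO2 was 5.35-fold lower in IL-1_1, with 4.74-fold and 6.03-fold at 1 SE either way. Against IL-1_4, the other chromosome 1 line, the TAO2 difference of IL-1_1 was -2.49 ± 0.21, or 5.63-fold lower. Against IL-2_3 it was -2.37 ± 0.19, or 5.15-fold lower. The highest IL-1_1 value of TAO2 and the lowest M82 value were 1.44 log2 units apart, and the corresponding gap was 2.01 to IL-1_4 and 1.80 to IL-2_3. The other 13 arrays together spanned 1.06 log2 units for TAO2, so the smallest of these gaps exceeded their whole range.

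Differences between the groups made up 94.6% of the sum of squares of TAO2 over the 17 arrays. Within groups the pooled SD of TAO2 was 0.28. Ranked within each array, the TAO2 signal exceeded that of 23.4% to 29.4% of all probe sets in IL-1_1. The same share for TAO2 was 58.9% to 60.8% in IL-1_4, 55.0% to 61.7% in IL-2_3 and 47.9% to 67.0% in M82. TAO2 thus ranked near the middle of the array in M82 and the other lines, and lower in IL-1_1 on every array.

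IL-1_1 differed from M82 at many probe sets, which sets the background for TAO2. Of all probe sets 12.2% were called in this comparison at an adjusted p of 0.05 (limma), and 5.81% of all were called lower in IL-1_1. All IL-1_1 arrays lay below all M82 arrays at 4.27% of the probe sets, and below all 13 other arrays at 2.51%. TAO2, which belongs to each of these sets by the way it was chosen, had the 27th most negative difference of the 10101, and 65 probe sets, TAO2 included, had a difference at least as large in either direction. For TAO3 the IL-1_1 and M82 arrays overlapped.

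**Figure D2:**
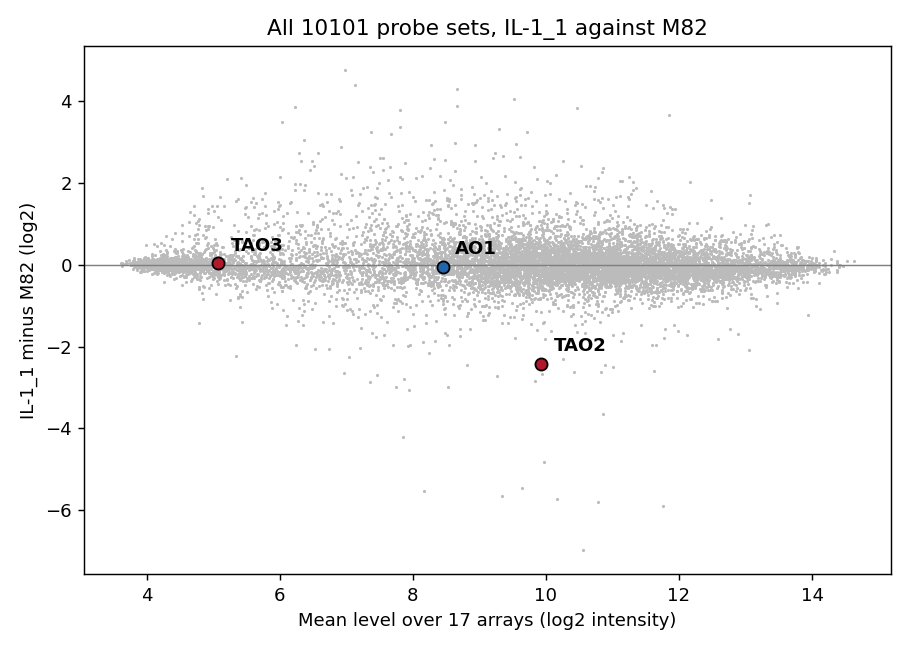
Difference of mean log2 level, IL-1_1 minus M82 (vertical axis), against the mean log2 level over 17 arrays (horizontal axis) for all 10101 probe sets (grey), with TAO2, TAO3 (red) and AO1 (blue) marked. TAO2 sits at -2.42 among the most negative differences, and TAO3 and AO1 sit at 0.03 and -0.05.

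The TAO2 difference between IL-1_1 and M82 was also taken from other fits, as a description. With each of the 17 arrays left out in turn it lay between -2.56 and -2.29, and under 9 other settings between -2.57 and -2.31. Leaving out an IL-1_4 or IL-2_3 array cannot change this difference. Nor can leaving out the dimmest 25% of probe sets, fitting only the groups compared or an intensity trend. IL-1_1 arrays scored -0.67 to 60.98 on the axis of variation within groups, and M82 arrays -36.4 to 42.6. IL-1_1 replicate 2, with the lowest score of its group, had a TAO2 level of 7.93, and M82 replicate 1, with the highest score of its group, had 9.93, the lowest TAO2 level in M82. With the score as a covariate the TAO2 difference was -2.31. The difference between 3-prime and 5-prime control probe sets, a sign of RNA quality, ran from -0.46 to -0.21 in IL-1_1 and from -0.47 to 0.07 in M82. Without the 2 arrays highest in it the TAO2 difference was -2.32.

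Of 4 probe sets for carpel and young fruit genes, fsm1 (2.01 ± 0.59, limma adjusted p = 0.0393) and TDR4 (1.31 ± 0.37, adjusted p = 0.0356) were higher in IL-1_1 than in M82, against 6.4% of all probe sets, and the other two were not called. TDR4 was not called in IL-1_4 or IL-2_3 (adjusted p = 0.622 and 0.181), with differences of 1.25 and 1.38 from M82 that were close to the one in IL-1_1. The summed intensity of the 4, as a log2 value, was 13.79 to 14.27 in IL-1_1, 13.46 to 13.76 in IL-1_4, 13.61 to 13.73 in IL-2_3 and 13.09 to 14.00 in M82. The fsm1 call was lost in 10 and the TDR4 call in 6 of the 17 fits that left out 1 array, IL-1_1 replicates 1 and 4 among them for both genes. Both were also lost with the replicate block, with only the groups compared, without the 2 arrays highest in the 3-prime to 5-prime difference and with the axis score as a covariate, which left fsm1 at 1.02 (adjusted p = 0.212) and TDR4 at 0.71 (adjusted p = 0.193). The carpel genes AG1 and AGL11, added to the 4, were not called in any line. Their IL-1_1 differences were 0.65 and 0.39 (limma adjusted p = 0.114 and 0.262). In IL-2_3 AG1 differed from M82 by -1.21 (adjusted p = 0.0533). None of 6 probe sets for leaf, petal and stamen, pollen or style genes was called in IL-1_1, against 12.2% of all probe sets. So small a set cannot show that the tissue mixture was the same. The part of the fruit genes in the TAO2 difference was not tested. Values of the single oligonucleotides were not analysed here, so fewer TAO2 transcripts and weaker binding of a wild allele to the probes cannot be told apart.

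TAO2 was tested in the comparisons without IL-1_1, whose low levels served to choose it. The M82 arrays, against which those levels were low, take part in the tests against M82. Those tests are therefore not fully independent of the choice. TAO2 in IL-1_4 differed from M82 by 0.07 ± 0.19 (95% interval -0.33 to 0.48, limma adjusted p = 0.9997). In IL-2_3 it differed from M82 by -0.05 ± 0.17 (interval -0.42 to 0.32, adjusted p = 0.999), and IL-1_4 differed from IL-2_3 by 0.13 ± 0.21 (interval -0.31 to 0.57, adjusted p = 0.908). TAO2 was not called in any of these comparisons, in which 0.644%, 0.901% and 1.54% of all probe sets were. The widest of these intervals reaches 0.57 log2 units from 0. From highest to lowest the TAO2 means ran IL-1_4, M82, IL-2_3 and IL-1_1, and IL-1_4, M82 and IL-2_3, which are neighbours in it, did not differ beyond their spread. Only the step from IL-2_3 down to IL-1_1 was larger than the spread within the groups.

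TAO3 gave a dim and level signal. In IL-1_1 TAO3 read 5.14, 5.001, 5.19 and 5.06, in IL-1_4 5.10, 5.04 and 5.07, and in IL-2_3 4.88, 5.25, 4.89 and 5.30. The lowest, median and highest TAO3 values of M82 were 4.81, 5.09 and 5.31. All IL-1_1 and IL-1_4 values and all IL-2_3 values were inside the M82 range. On each array TAO3 exceeded only 8.59% to 11.8% of the probe sets, a place in which signal and background are hard to separate, and no detection call was used here.

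Mean TAO3 levels were 5.10 ± 0.08 in IL-1_1 (SD, n = 4), 5.07 ± 0.03 in IL-1_4 (n = 3), 5.08 ± 0.23 in IL-2_3 (n = 4) and 5.07 ± 0.16 in M82 (n = 6). The IL-1_1 minus M82 difference of TAO3 was 0.03 ± 0.10. In IL-1_4 TAO3 differed from M82 by -0.002 ± 0.11 (interval -0.24 to 0.24, limma adjusted p = 0.9997). In IL-2_3 it differed from M82 by 0.008 ± 0.10 (interval -0.21 to 0.23, adjusted p = 0.999), and between IL-1_4 and IL-2_3 by -0.01 ± 0.12 (interval -0.27 to 0.25, adjusted p = 0.987). Group membership held 0.69% of the sum of squares of TAO3. The order of its 4 group means, IL-1_1, IL-2_3, M82 and IL-1_4, therefore carries no step beyond the spread, and a low level or change of TAO3 below this signal could not have been seen.

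AO1 showed no such gap between groups. In IL-1_1 AO1 read 8.86, 7.99, 8.70 and 8.36, in IL-1_4 8.48, 8.39 and 8.80, and in IL-2_3 8.22, 8.21, 8.56 and 7.88. In M82 the lowest, median and highest AO1 values were 7.94, 8.50 and 9.05. Every pair of groups overlapped for AO1. AO1 differed from M82 by -0.05 ± 0.23 in IL-1_1 (interval -0.55 to 0.45, limma adjusted p = 0.890), where TAO2 fell short of M82 by more than 2 log2 units. The AO1 difference was 0.03 ± 0.26 in IL-1_4 (interval -0.52 to 0.57, adjusted p = 0.9997) and -0.31 ± 0.23 in IL-2_3 (interval -0.81 to 0.19, adjusted p = 0.999). AO1 was not called in any line, and its spread within groups (pooled SD 0.38) was wider than that of TAO2.

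Next to the aldehyde oxidases in the route are the genes that make the precursors of abscisic aldehyde and the genes known to answer to the hormone. None of 5 probe sets in the list of abscisic acid synthesis genes was called in IL-1_1 against M82, where 12.2% of all probe sets were. With so few probe sets this count does not set the list apart from that share. The 5 probe sets were those of ZEP (zeaxanthin epoxidase), VDE (violaxanthin de-epoxidase, with 2 probe sets), NCED1 and FLACCA. VDE was matched to the list by its symbol, and its enzyme reverses the ZEP step, so the list has no single direction. The 5 differences were all positive. Their median was 0.32, the value of a VDE probe set, against -0.02 for all probe sets. Of the 5, 2 had an unadjusted limma p under 0.05, as did 33.5% of all probe sets. NCED1, whose dioxygenase makes the committed precursor of abscisic acid, read 11.78, 9.17, 9.78 and 9.58 in IL-1_1, against 7.68 to 9.98 with a median of 7.93 in M82. The highest M82 array thus exceeded all but 1 of the IL-1_1 arrays. The NCED1 difference was 1.73 ± 0.55 (limma adjusted p = 0.0508), and 0.87 with the axis score as a covariate. NCED1 was called without M82 replicate 1, IL-1_1 replicate 2 or IL-2_3 replicate 2, and its adjusted p ran from 0.0093 to 0.181 with 1 array left out. FLACCA, the sulfurase that completes the cofactor of aldehyde oxidases such as TAO2, differed by 0.22 ± 0.18 (adjusted p = 0.381).

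**Figure D3:**
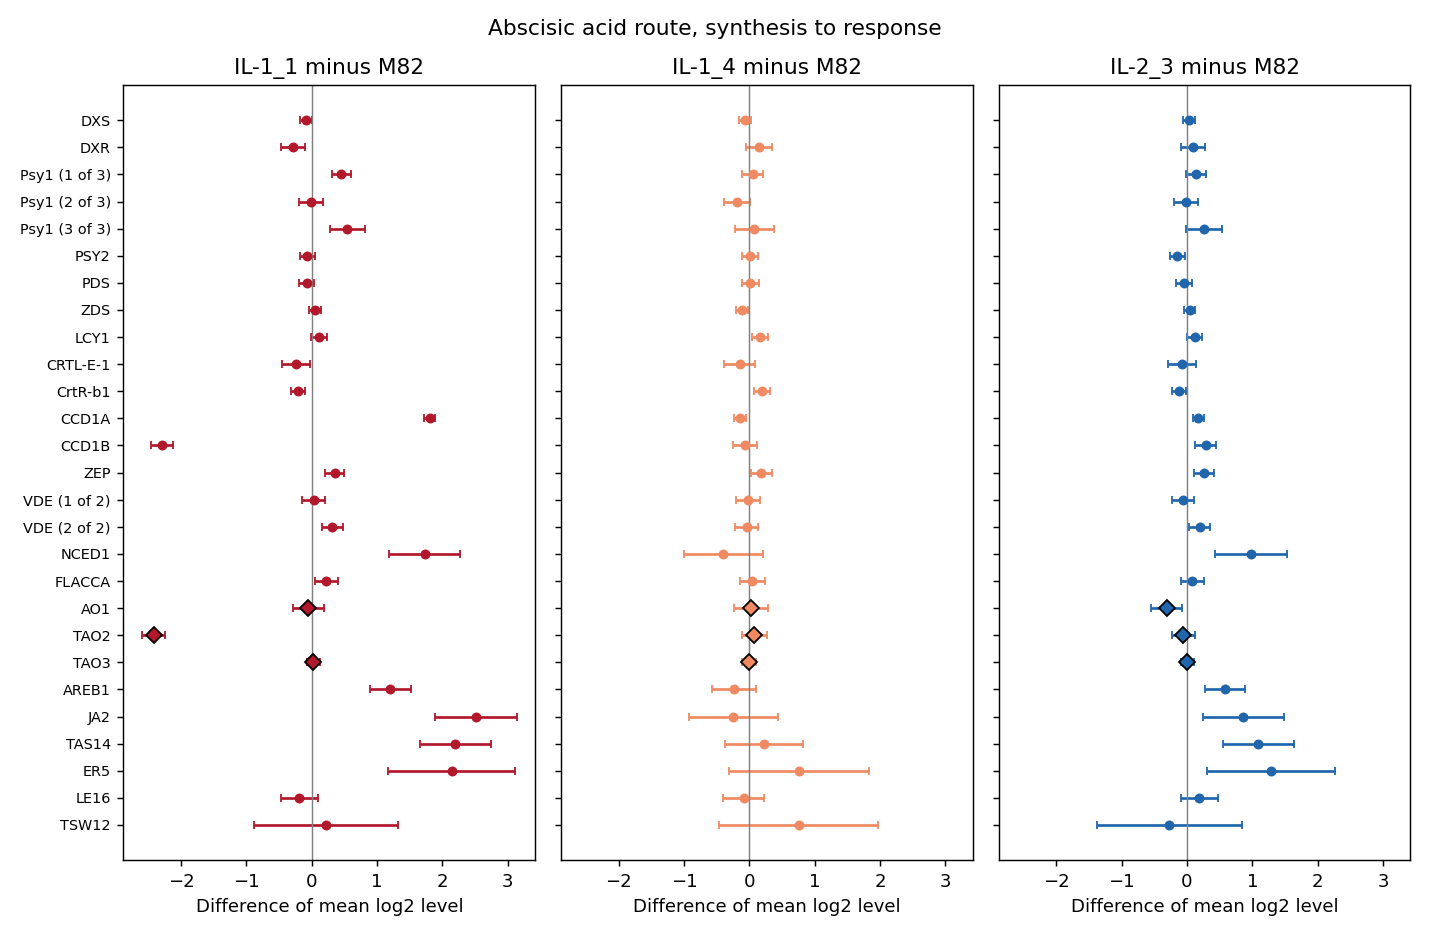
Difference of mean log2 level from M82 with its SE (bars) in IL-1_1, IL-1_4 and IL-2_3. Genes run from the carotenoid list at the top to the abscisic acid response at the bottom. CCD1A and CCD1B are shown as members of the carotenoid list and do not make the precursors. Diamonds mark AO1, TAO2 and TAO3. In IL-1_1 TAO2 (-2.42) and CCD1B (-2.29) lie far to the left and CCD1A, NCED1, AREB1, JA2, TAS14 and ER5 to the right; TAO2 stays within 0.1 of M82 in the other lines.

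Of 6 probe sets for abscisic acid response and water stress genes, 3 were higher in IL-1_1, against 6.4% of all probe sets. The median difference of the 6 was 1.67, and 0.76 without IL-1_1 replicate 1, where ER5 read 13.67 against 7.26 to 7.64 in the rest of the line; with the axis score as a covariate it was 0.83. The dehydrin gene TAS14 read 9.42, 7.52, 9.15 and 7.17 in IL-1_1, above all M82 arrays (5.57 to 6.60), and averaged 8.31 ± 1.14 in the 4 arrays of that line against 6.11 ± 0.42 in the 6 M82 arrays (SD; limma adjusted p = 0.0205). The NAC factor gene JA2 differed by 2.51 ± 0.62 (adjusted p = 0.0204) and AREB1, a bZIP factor that binds abscisic acid response elements, by 1.21 ± 0.31 (adjusted p = 0.0240). All 3 calls were lost without IL-1_1 replicate 1, with differences of 1.83 for TAS14, 2.04 for JA2 and 0.94 for AREB1 (adjusted p = 0.0798, 0.0795 and 0.0896). They were also lost without the 2 arrays highest in the 3-prime to 5-prime difference, with differences of 2.09, 2.26 and 1.08 in the same order (adjusted p = 0.0550, 0.0603 and 0.0667). With the axis score as a covariate TAS14 differed by 1.97 and JA2 by 1.41 without being called (adjusted p = 0.0875 and 0.0785). AREB1 differed by 0.57 in that fit and stayed called. JA2 and AREB1 were also lost with only the groups compared, JA2 without M82 replicate 2, and AREB1 without IL-1_1 replicate 4 or any of M82 replicates 2, 4 and 5.

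In the carotenoid list 1 of 13 probe sets was higher and 1 lower in IL-1_1, against 6.4% and 5.81% of all. The list holds genes for the plastid precursors of abscisic acid. It also holds CCD1A and CCD1B, whose enzymes cleave carotenoids and do not make those precursors. Only CCD1A and CCD1B were called, and the other 11 probe sets were not. CCD1B, a carotenoid cleavage dioxygenase gene, was lower (-2.29 ± 0.16, limma adjusted p = 1.70e-07), and its paralogue CCD1A higher (1.80 ± 0.08, adjusted p = 5.98e-10). CCD1A read 12.13, 12.04, 12.15 and 12.05 in IL-1_1 and 10.06 to 10.50 in M82. Of 14 auxin probe sets 1, of the repressor gene IAA7, was higher in IL-1_1 (1.02 ± 0.19, adjusted p = 0.00472), against 6.4% of all; its other probe set differed by 0.26 (adjusted p = 0.0508). No probe set matched the list of aldehyde dehydrogenases, enzymes that also oxidise aldehydes, and FLACCA alone matched the list of molybdenum cofactor genes.

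In IL-1_4, where TAO2 did not differ from M82 beyond the spread, none of the probe sets of these lists was called. Only 0.644% of all probe sets were called there, so this absence of calls says little about the lists. NCED1 differed there by -0.40 ± 0.60 and the response list had a median of 0.07. In IL-2_3 the single call was the auxin response factor gene ARF3 (-5.01 ± 0.21, limma adjusted p = 1.76e-10), with 0.713% of all probe sets called lower; its other probe set differed by -0.07. The response list had a median of 0.72 in IL-2_3 and NCED1 a difference of 0.98 ± 0.55 (adjusted p = 0.999), while TAO2 differed by -0.05. The comparisons share the M82 arrays.

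Probe sets were also ranked by how closely their levels, each centred on its M82 mean, followed those of TAO2 over the 17 arrays, with the root mean square difference in log2 units as the measure. This describes likeness and was not tested, since low values in IL-1_1 decide it. The nearest to TAO2 was formin-I2I (0.31, rank 1 of 10099), a gene of the formin family of actin regulators. Formin-I2I averaged 5.42 in IL-1_1, 7.25 in IL-1_4, 7.59 in IL-2_3 and 7.67 in M82. Its IL-1_1 values (5.33 to 5.53) lay just above those of TAO3 (4.81 to 5.31), where signal and background are hard to separate. The size of its drop is therefore uncertain. CCD1B was at rank 10 (0.37), with means of 8.45 in IL-1_1, 10.68 in IL-1_4, 11.03 in IL-2_3 and 10.75 in M82. Ranks 2 (0.32) and 3 (0.35) were held by probe sets that have no symbol here.

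The next named probe sets followed TAO2 less closely. ERF-H1, an ethylene response factor gene, was at rank 49 (0.63), the small heat shock protein gene HSP21 at rank 71 (0.76) and the cyclin gene CycB2 at rank 112 (0.82). Their IL-1_1 minus M82 differences were -1.42 ± 0.28, -1.25 ± 0.32 and -1.23 ± 0.41, smaller than the -2.42 ± 0.17 of TAO2. CycB2 read 8.45 in IL-1_1 replicate 2, close to its M82 mean of 8.46, whereas TAO2 was low on that array (7.93). Formin-I2I, CCD1B, the 2 unnamed probe sets and, by a narrower margin (8.70 against 8.90), ERF-H1 shared with TAO2 the gap between all IL-1_1 arrays and the 13 others. They were picked for their likeness to TAO2 on these arrays, so the shared gap follows largely from the choice. Of all probe sets 2.51% had it.

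**Figure D4:**
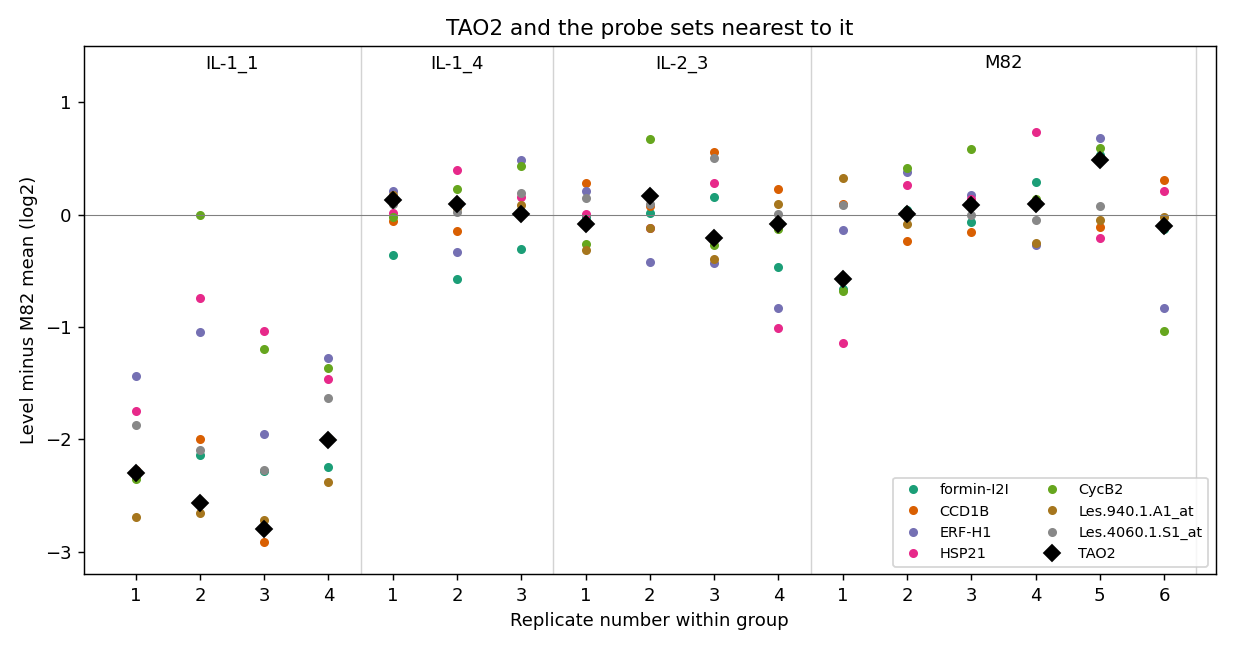
Log2 level minus the M82 mean on each of the 17 arrays for TAO2 (black diamonds) and the 5 named and 2 unnamed probe sets nearest to it (coloured points); vertical lines part the groups. In IL-1_1 the TAO2 points and those of formin-I2I, CCD1B and the unnamed probe sets lie far below 0, and CycB2 reaches the M82 mean in replicate 2.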

How the data were processed

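Per the labels, total RNA of carpels was extracted with Trizol and a column, biotin-labelled in a single cycle and hybridised 1 sample per array. The authors deposited 1 log2 intensity per probe set and array, made with affy per the submitters' processing notes; the sources used here give neither its version nor the summarization method, and base 2 was inferred from the range of values. The values were used as deposited. Of 10209 probe sets the 108 controls were left out. Symbols come from the platform annotation of 2007, which names 909 of the 10101 tested; chromosome positions and sequences were not used here.

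Groups follow the sample titles. A single limma fit (limma 3.58.1, R 4.3.3) over 17 arrays had 1 mean per group; tests are two-sided and moderated, p-values were Benjamini-Hochberg adjusted over 10101 probe sets and called at 0.05, and intervals are at 95%. The fit was also run on simulated data with independent noise at each probe set and changes placed in IL-1_4 only. Those data lack the main axis of variation seen here, so that run cannot show how reliable the present calls are. The members, lists and tests were chosen with earlier results of these data known. Genes named from a list are its called members, at most 6 by smallest p, or the 2 smallest where none was called, and the 5 named and 2 unnamed probe sets nearest to TAO2. Tissue markers and a few symbols (AO1, NSY, CNX61.0, LEA14, H1, AG1 and AGL11, none of them called against M82) were added, those symbols after the names were seen. Alternatives were a replicate block, median centring, quantile normalization, leaving out the dimmest 25%, fitting only the groups compared, an intensity trend, leaving out 3 arrays that stand apart, and each array in turn. An axis covariate and the removal of 2 arrays by their control probe sets were added after seeing the data. The number of arrays limits the precision. After the group mean of each probe set was subtracted, same-numbered arrays of different groups correlated at -0.705 to 0.605 over 21 pairs. Of these pairs 10 were above 0.1, so the numbers were not taken to pair the samples.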

Additional observations from a re-analysis of the deposited data

Results flagged for a closer look

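In IL-1_1, IL-2_3 and M82, neither TAO2 nor TAO3, and not AO1, had an array that stood apart from its group by Dixon's test. IL-1_4, with 3 arrays, was not examined for any gene. With the listed genes beside them, 57 groups were examined, where chance gives about 1 in 20. In the listed genes 3 values stood apart from the rest of their group, which is about as many as chance gives. ER5, a gene of the abscisic acid response list, read 13.67 in IL-1_1 replicate 1, against 7.26 to 7.64 in the other IL-1_1 arrays. The fruit gene fsm1 read 10.17 in IL-2_3 replicate 3, against 11.39 to 11.56 in the others of that line. The ARF3 probe set that was lower in IL-2_3 read 5.84 in IL-2_3 replicate 1, against 4.99 to 5.10 in the others. TAO2 on these arrays read 8.20 in IL-1_1 replicate 1, 10.29 in IL-2_3 replicate 3 and 10.41 in IL-2_3 replicate 1, inside the range of its group or at its lower end.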

How the results depend on the processing

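TAO2 in IL-1_1 against M82 lay between -2.57 and -2.31 under the 9 settings and between -2.56 and -2.29 with 1 array left out. The near-zero differences turned sign, and the cause was not tested. TAO2 in IL-1_4 against M82 was -0.040 without the 3 arrays that stand apart (-0.040 to 0.17 with 1 array left out). TAO2 in IL-2_3 against M82 was 0.044 without the 2 arrays highest in the 3-prime to 5-prime difference (-0.17 to 0.044). TAO3 in IL-1_1 against M82 (0.03) was -0.033 with the replicate block, -0.0040 with median centring, -0.10 with the axis covariate and -0.025 without the 2 arrays (-0.025 to 0.074). TAO3 in IL-1_4 against M82 was 0.045 without the 3 arrays and 0.023 with the axis covariate (-0.054 to 0.045). TAO3 in IL-2_3 against M82 was -0.012 with median centring, -0.020 without the 3 arrays, -0.020 with the axis covariate and -0.044 without the 2 arrays (-0.067 to 0.076). TAO3 in IL-1_4 against IL-2_3 was 0.011 with median centring, 0.065 without the 3 arrays and 0.044 with the axis covariate (-0.078 to 0.065). AO1 in IL-1_4 was -0.088 without the 3 arrays, -0.010 without the 2, and -0.088, -0.020, -0.049 and -0.093 with single arrays left out (-0.093 to 0.13); in IL-1_1 single arrays gave AO1 0.053, 0.054 and 0.11 (-0.18 to 0.11). FLACCA was -0.016 in IL-1_1 with the axis covariate, -0.069 and -0.0066 in IL-1_4 (-0.069 to 0.12) and -0.030 in IL-2_3 (-0.030 to 0.18) with single arrays left out. TAO3 is among the dimmest 25% and has no value in the fit without them.

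With the replicate block TAO2 in IL-1_1 against M82 was -2.32, TAO2 in IL-2_3 was 0.042, TAO3 in IL-2_3 was -0.052 and AO1 in IL-1_4 was -0.013; the block made 815 calls in IL-1_1 against M82, and with it 1 synthesis probe set, that of NCED1, was called.

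The count for IL-1_1 against M82 (1233) was 377 with only these groups, 548 with the axis covariate, 555 without the 2 arrays and 1916 without the 3. With 1 array left out it ran from 421 to 3079; it was 3079, 547, 725, 595 and 673 without M82 replicates 1 to 5 and 469 and 421 without IL-1_1 replicates 1 and 4. Against IL-1_4 (1776) it was 781 with the axis covariate and 950 without the 2 arrays (606 to 2497). Against IL-2_3 (492) it was 239 with only these groups and 873 without the 3 arrays (299 to 834). IL-1_4 against M82 (65) gave 104 and IL-1_4 against IL-2_3 (156) gave 238 with the axis covariate; IL-2_3 against M82 (91) gave 60 with only these groups.

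In IL-1_1, 1 synthesis probe set was called with median centring, an intensity trend, the axis covariate, without the 3 arrays or without the dimmest 25% (0 to 1 with 1 array left out); with the axis it was ZEP, without IL-1_1 replicate 3 a VDE probe set, and NCED1 in the others that made a call. Response probe sets called (3) were 1 with only these groups, 1 with the axis covariate, 0 without the 2 arrays and 1 without the dimmest 25%, which leaves out TAS14 and JA2 (0 to 3). Auxin probe sets called (1) were 2 with median centring, an intensity trend or without the 3 arrays, 3 with quantile normalization and 0 without the dimmest 25%, which leaves out IAA7 (1 to 3). The list of aldehyde dehydrogenases matched nothing and has no value.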
